A study of Mus musculus with 20 samples.

Results

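The genes described here are the Wnt ligands, the Frizzled receptors, the Lrp5 and Lrp6 co-receptors, the R-spondins with their Lgr receptors, the secreted Sfrp and Dkk modulators, and the Axins. They were chosen by gene name alone, which took 48 of the 45705 genes in the table: 19 Wnt, 10 Fzd, 4 Sfrp, 4 Dkk, 2 Axin, 4 Rspo, 3 Lgr and 2 Lrp genes. The measurements are bulk RNA-seq of 5 populations sorted from the periventricular zone of P5 Swiss Webster mice, in 4 batches, each an independent experiment on pooled pups of both sexes, so each population has 4 libraries and there are 20 in all. Neural stem cells (NSC) were sorted as CD133+ LeX+ CD140a- NG2-. The 4 progenitor populations were all NG2+ CD133- and differed by CD140a, the PDGF receptor alpha, and LeX, a surface carbohydrate: BNAP/GRP1 (CD140a- LeX+), GRP2/MP3 (CD140a- LeX-), GRP3 (CD140a+ LeX-) and PFMP (CD140a+ LeX+). BNAP stands for a bipotential neuron-astrocyte progenitor, GRP for a glial-restricted, MP for a multipotential and PFMP for a PDGF- and FGF-responsive multipotential progenitor, so the BNAP/GRP1 and GRP2/MP3 gates each hold more than one kind of cell. No treatment or genetic change was applied. Libraries carry the name of the population and the number of the batch, NSC 3 being from batch 3.

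Wnt ligands are secreted lipid-modified proteins that bind a Frizzled together with Lrp5 or Lrp6. In the canonical branch this stops the destruction complex, which is built on Axin, from degrading beta-catenin, while other branches act on cell polarity and calcium. R-spondins, through Lgr receptors, keep Frizzleds at the cell surface, Sfrp proteins bind Wnts outside the cell, and most Dkk proteins block the Lrp co-receptors. In the postnatal subventricular zone the pathway is known for its part in progenitor proliferation and in the choice between neuronal and glial fates.

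The values are RPKM, in which reads are divided by the length of the gene and by the size of the library. This is meant to let levels of different genes be set side by side. The RNA was amplified from polyA before sequencing, and whether genes of different length stay comparable after that was not tested. Rankings of genes by level below carry this limit. Read totals are not given in the table, so the depth of a library is unknown and no counting interval is given. Of the 48 genes, 37 reached 1 RPKM in at least 4 of the 20 libraries and were tested: 12 Wnt, 10 Fzd, 4 Sfrp, 3 Dkk, 2 Axin, 1 Rspo, 3 Lgr and 2 Lrp genes. The 11 below this level were Wnt1, Wnt2b, Wnt3a, Wnt8a, Wnt8b, Wnt10a, Wnt10b, Dkk4, Rspo2, Rspo3 and Rspo4. The filter leaned on batch 4, and 25 of the 37 would have had 4 such libraries outside it.

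Several libraries stood apart before any comparison. BNAP/GRP1 4 held all 48 genes at 3.98 RPKM or more and was the highest library for 36 of them, while its median over all genes of the table was 8.30 RPKM against at most 2.02 in any other library. That median was also raised in NSC 4, GRP2/MP3 4 and GRP3 4, at 1.61, 0.98 and 2.02 RPKM. It was at most 0.24 RPKM in batches 1 to 3 and 0.0079 RPKM in PFMP 4. A gene at 1 RPKM in NSC 4, GRP2/MP3 4 or GRP3 4 therefore lay near or below the median gene of its library. Apart from BNAP/GRP1 4, the other batch 4 libraries held between 15 and 47 of the 48 at 1 RPKM or more, and those of batch 3 between 6 and 14. In batch 3, markers of lung epithelium summed to 981 to 1113 RPKM in all 5 populations, against at most 11.3 in batches 1 and 2, and the libraries labelled GRP3 3 and PFMP 3 held Pdgfra, which encodes CD140a, at 3.41 and 3.84 RPKM, where the other 6 CD140a+ libraries held 96.9 to 803 RPKM. In NSC, all 12 ependymal markers were detected and summed to 1394 to 15713 RPKM, against 5.21 to 553 RPKM in the progenitors. Foxj1, the regulator of motile cilia that defines ependymal cells, was at 33.1 to 352 RPKM in NSC and at 0.00416 to 9.42 RPKM in the progenitors. Every comparison with NSC below therefore also compares libraries with more and with less ependymal transcript, and the part of those cells in it was not tested.

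**Figure D1:**
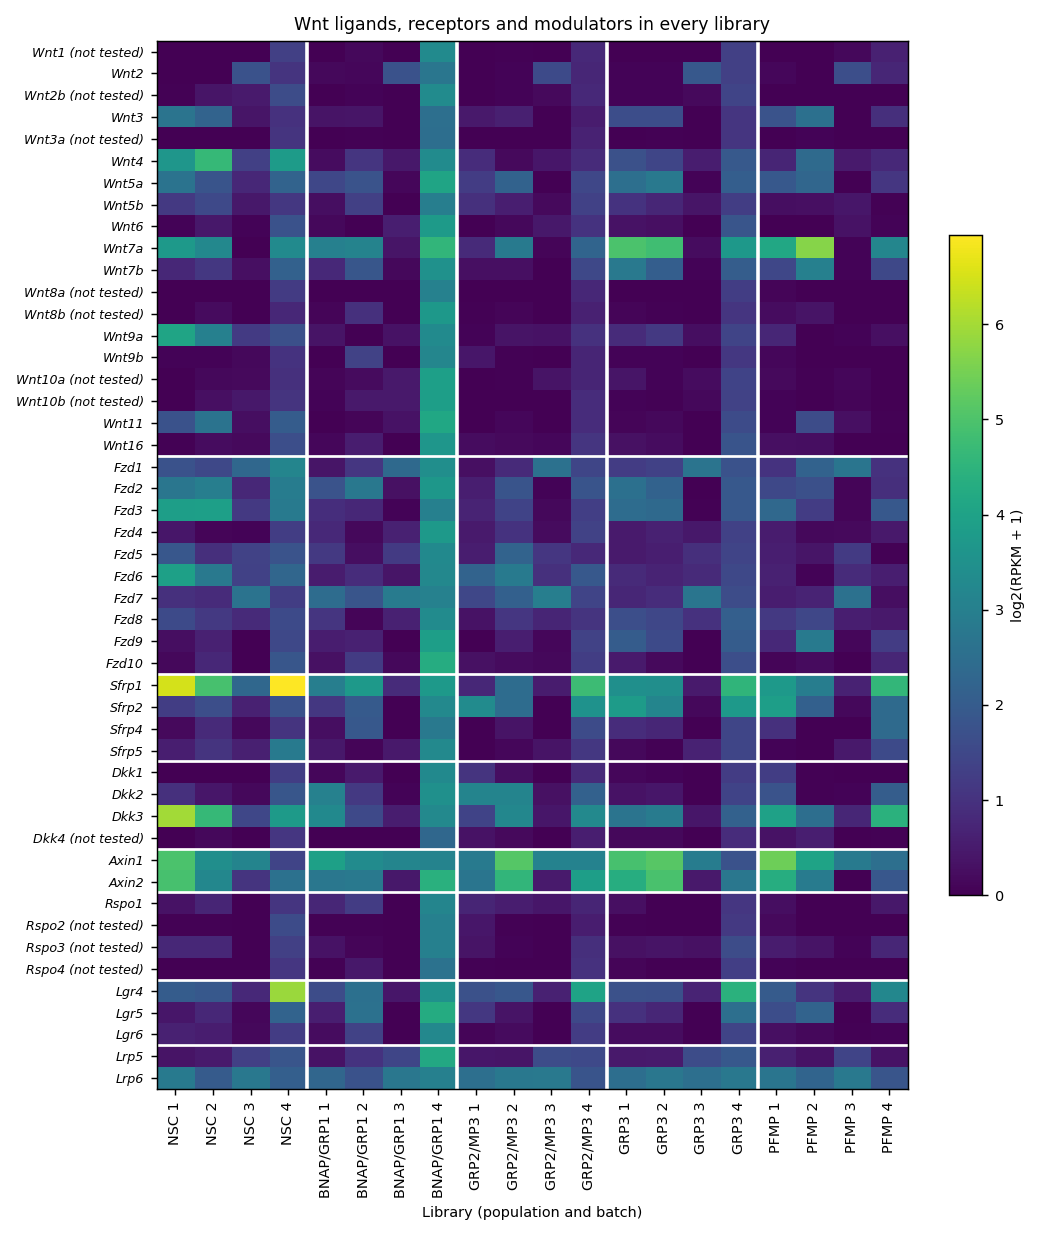
Level of each of the 48 genes (rows, grouped by family) in each of the 20 libraries (columns, grouped by population) as log2(RPKM + 1), from dark at 0 to yellow. BNAP/GRP1 4 holds every gene at 3.98 RPKM or more and is the highest library for 36 of the 48, and Sfrp1 is highest in NSC 4 at 122 RPKM.

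The families differed in which gene led them. Among the ligands Wnt7a was highest in 11 of 20 libraries and in 7 of the 10 libraries of batches 1 and 2, while Wnt2 led in all 5 libraries of batch 3. Lrp6 exceeded Lrp5 in 19 libraries, Dkk3 led the Dkk genes in 18, Lgr4 the Lgr genes in 17, Axin1 was above Axin2 in 16, and Sfrp1 led the Sfrp genes in 15. No Frizzled led in more than 5 libraries, and 8 of the 10 led somewhere. Among the 15 libraries of batches 1 to 3, 13 genes never reached 1 RPKM, namely the 11 that were not tested with Wnt6 and Wnt16, and only Axin1 and Lrp6 reached it in all 15.

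The first question was whether NSCs and their progenitor descendants differ in these genes. Without a batch term, none of the 37 passed an adjusted p of 0.05 (limma, Benjamini-Hochberg over all 27614 genes tested) in BNAP/GRP1, GRP2/MP3, GRP3 or PFMP, or in the mean of the 4 progenitors, against NSC. Over all genes tested, 0.76%, 1.12%, 1.05% and 1.14% passed in the 4 progenitors and 1.98% in their mean. At an unadjusted p under 0.05, the number of these genes lower than in NSC was 3, 4, 3 and 3 in the 4 progenitors and 6 in the mean, and none was higher. Of all genes tested, 5.9%, 5.79%, 5.62% and 5.88% reached that p in the 4 progenitors and 6.87% in the mean, in either direction. By the labels each population has 1 library in each batch, so the batch pairs the libraries. In a second fit, which held the batch as a replicate block, Sfrp1 fell in each of the 4 progenitors, Wnt4 and Fzd3 fell in GRP2/MP3, and Sfrp1, Wnt4, Fzd3 and Wnt9a fell in the mean of the progenitors. That made 1, 3, 1 and 1 of 37 in BNAP/GRP1, GRP2/MP3, GRP3 and PFMP and 4 of 37 in the mean (10.8%), with none higher, where 2.09%, 3.08%, 2.6% and 2.79% of all genes passed in the 4 progenitors and 4.36% in the mean. In bulk RNA, fewer cells of one kind and less RNA per cell cannot be told apart, here and in all that follows.

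Leaving out BNAP/GRP1 4 brought the count with the block from 4 to 7 of 37 in the mean of the progenitors, against 6.04% of all genes, adding Dkk3, Fzd6 and Wnt11. The counts in BNAP/GRP1, GRP2/MP3, GRP3 and PFMP were then 3, 4, 2 and 5 of 37, all lower than in NSC, against 2.93%, 4.26%, 3.5% and 4.11% of all genes. The difference of the median gene told little of this. In the mean of the progenitors against NSC the median log2 difference was -0.03 over the 37 genes and 0.07 over all genes tested, and 19 of the 37 lay below 0.

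Sfrp1, which encodes a secreted Wnt-binding antagonist (ENSMUSG00000031548, chromosome 8, 23411502 to 23449632 on GRCm38), was the most abundant of the 48 genes in NSC. It was at 88.4, 29.2, 4.01 and 122 RPKM in NSC 1 to 4 and at 6.89, 12.6, 0.82 and 12.3 RPKM in BNAP/GRP1. In GRP2/MP3 it was at 0.71, 4.43, 0.44 and 26.1 RPKM, in GRP3 at 10.02, 9.86, 0.42 and 22.2 RPKM, and in PFMP at 12.4, 6.73, 0.58 and 23.3 RPKM. All 16 progenitor libraries lay below the NSC library of their batch, although the groups overlapped, NSC 3 being low like the other batch 3 libraries. The difference from NSC in log2(RPKM + 1) was -2.33, -3.04, -2.18 and -2.18 in the 4 progenitors in the order above, and -2.43 ± 0.91 (SE) in their mean, with an adjusted p of 0.335 without and 0.00139 with the replicate block (limma). In single batches the difference of the mean was -3.74, -1.77, -1.69 and -2.53. For the 4 progenitors, again in this order, the block gave adjusted p of 0.0267, 0.00235, 0.0365 and 0.0354 (limma). The calls of GRP2/MP3 and of the mean held when batch 3 or batch 4 was left out, and those of BNAP/GRP1, GRP3 and PFMP did not. That of BNAP/GRP1 was also lost without BNAP/GRP1 4 (adjusted p = 0.0816, limma). The means of the 4 progenitors were 8.16 ± 5.55, 7.92 ± 12.3, 10.6 ± 8.95 and 10.8 ± 9.66 RPKM (SD, n = 4), against 60.9 ± 53.9 RPKM in NSC. GRP2/MP3 4 raised the mean of GRP2/MP3, whose median was 2.57 RPKM. The medians were 9.62, 9.94 and 9.58 RPKM in BNAP/GRP1, GRP3 and PFMP.

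Wnt4, a ligand best known from kidney and gonad development (ENSMUSG00000036856, chromosome 4, 137277489 to 137299726), was the ligand with the largest difference. It was at 11.6, 24.0, 1.51 and 13.01 RPKM in NSC 1 to 4 and at 0.17, 1.09, 0.37 and 9.14 RPKM in BNAP/GRP1. GRP2/MP3 held 0.84, 0.12, 0.34 and 0.80 RPKM, GRP3 2.30, 1.71, 0.48 and 2.87 RPKM, and PFMP 0.64, 4.26, 0.42 and 0.74 RPKM. Again all 16 progenitor libraries were below the NSC library of their batch, and GRP2/MP3 did not overlap with NSC. The mean of the progenitors differed by -2.26 ± 0.60 (SE), with an adjusted p of 0.0534 without and 0.00776 with the block (limma). By population the difference was -2.09, -2.78, -1.94 and -2.25, and only that of GRP2/MP3 passed with the block (adjusted p = 0.0135, limma), a call that was lost without batch 4. With the block and without BNAP/GRP1 4, in which Wnt4 was at 9.14 RPKM, all 4 progenitors passed, with adjusted p of 0.0114, 0.00344, 0.0457 and 0.017 (limma).

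Wnt9a, another ligand (ENSMUSG00000000126, chromosome 11, 59306928 to 59333552), was at 15.6, 7.06, 1.28 and 2.26 RPKM in NSC 1 to 4 and at 0.28, 0.02, 0.26 and 9.02 RPKM in BNAP/GRP1. It was at 0.04, 0.29, 0.26 and 0.99 RPKM in GRP2/MP3, at 0.81, 1.23, 0.20 and 1.69 RPKM in GRP3, and at 0.67, 0, 0.05 and 0.22 RPKM in PFMP. Of the 16 progenitor libraries 15 lay below the NSC library of their batch and 14 below every NSC library, so that GRP2/MP3 and PFMP did not overlap with NSC. BNAP/GRP1 4 was the exception to the former. The mean of the progenitors differed by -1.83 ± 0.55 (SE), with an adjusted p of 0.126 without and 0.0408 with the block, and of 0.102 with the block when batch 3 was left out (limma). No single progenitor passed in either fit, but without BNAP/GRP1 4 and with the block Wnt9a passed in BNAP/GRP1, GRP2/MP3 and PFMP (adjusted p = 0.0249, 0.0177 and 0.0113, limma).

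Fzd3, a Frizzled known from axon guidance and planar cell polarity (ENSMUSG00000007989, chromosome 14, 65192449 to 65262463), had the highest mean of the 10 Frizzleds in NSC. NSC 1 to 4 held 13.8, 14.0, 1.24 and 6.23 RPKM and BNAP/GRP1 0.88, 0.70, 0.05 and 7.08 RPKM. The values were 0.61, 1.66, 0.10 and 1.45 RPKM in GRP2/MP3, 4.50, 4.21, 0.02 and 2.73 RPKM in GRP3, and 4.06, 1.37, 0.07 and 2.77 RPKM in PFMP. All groups overlapped with NSC across batches, while 15 of 16 progenitor libraries were below the NSC library of their batch, BNAP/GRP1 4 being above it. The mean of the progenitors differed by -1.66 ± 0.62 (SE), with an adjusted p of 0.329 without and 0.0262 with the block, and of 0.0976 with the block when batch 3 was left out (limma). GRP2/MP3 differed by -2.07 and passed with the block (adjusted p = 0.0387, limma), but not without batch 3.

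Dkk3, a divergent member of the Dickkopf family, narrowly missed the threshold with the block. It was at 61.7, 24.0, 1.81 and 12.8 RPKM in NSC 1 to 4 and at 8.83, 1.88, 0.46 and 8.54 RPKM in BNAP/GRP1. GRP2/MP3 held 1.62, 8.21, 0.33 and 8.57 RPKM, GRP3 5.35, 6.34, 0.33 and 3.44 RPKM, and PFMP 14.7, 4.64, 0.69 and 20.7 RPKM. All but PFMP 4 were below the NSC library of their batch, and the groups overlapped. The mean of the progenitors differed by -1.68 ± 0.79 (SE), with an adjusted p of 0.691 without and 0.0503 with the block, and of 0.0444 when BNAP/GRP1 4 was also left out (limma).

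Fzd6, a Frizzled known from hair and inner ear polarity and picked out after its values were seen, had 14 of 16 progenitor libraries below the NSC library of their batch. NSC 1 to 4 held 14.3, 5.95, 1.54 and 3.88 RPKM. The 4 PFMP libraries, at 0.56, 0.06, 0.80 and 0.49 RPKM, lay below all of these, and GRP3 held 0.79, 0.63, 0.76 and 1.84 RPKM. In BNAP/GRP1 it was at 0.45, 0.83, 0.32 and 8.40 RPKM and in GRP2/MP3 at 3.60, 6.07, 0.95 and 2.75 RPKM, both overlapping with NSC. PFMP differed by -2.06 (adjusted p = 0.259 without and 0.0794 with the block, limma), and passed with the block when BNAP/GRP1 4 was left out (adjusted p = 0.0183).

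**Figure D2:**
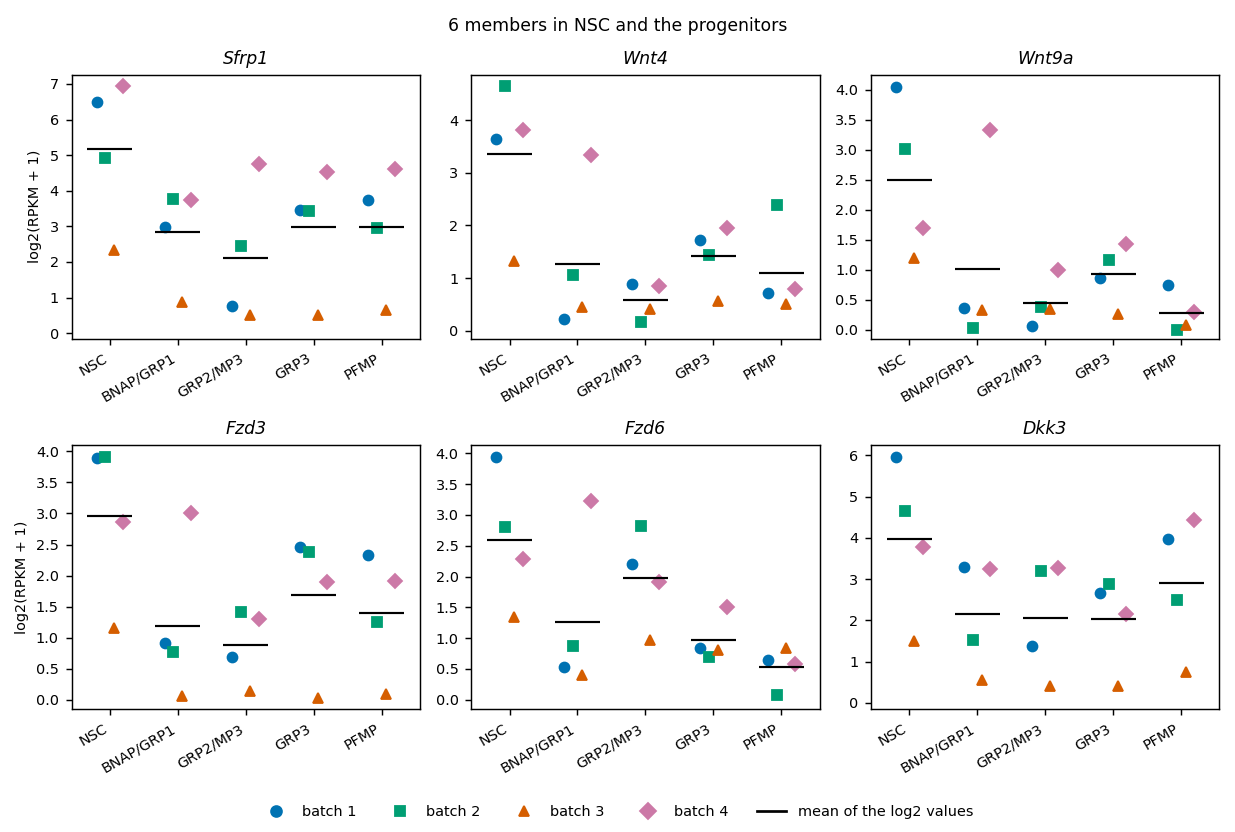
log2(RPKM + 1) of Sfrp1, Wnt4, Wnt9a, Fzd3, Fzd6 and Dkk3 in the 4 libraries of each population, with the symbol and colour giving the batch and a line at the mean of the 4 log2 values. Batch 3 is low in every population for Sfrp1, Fzd3 and Dkk3, and BNAP/GRP1 4 stands above the other BNAP/GRP1 libraries for Wnt4, Wnt9a, Fzd3 and Fzd6.

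**Figure D3:**
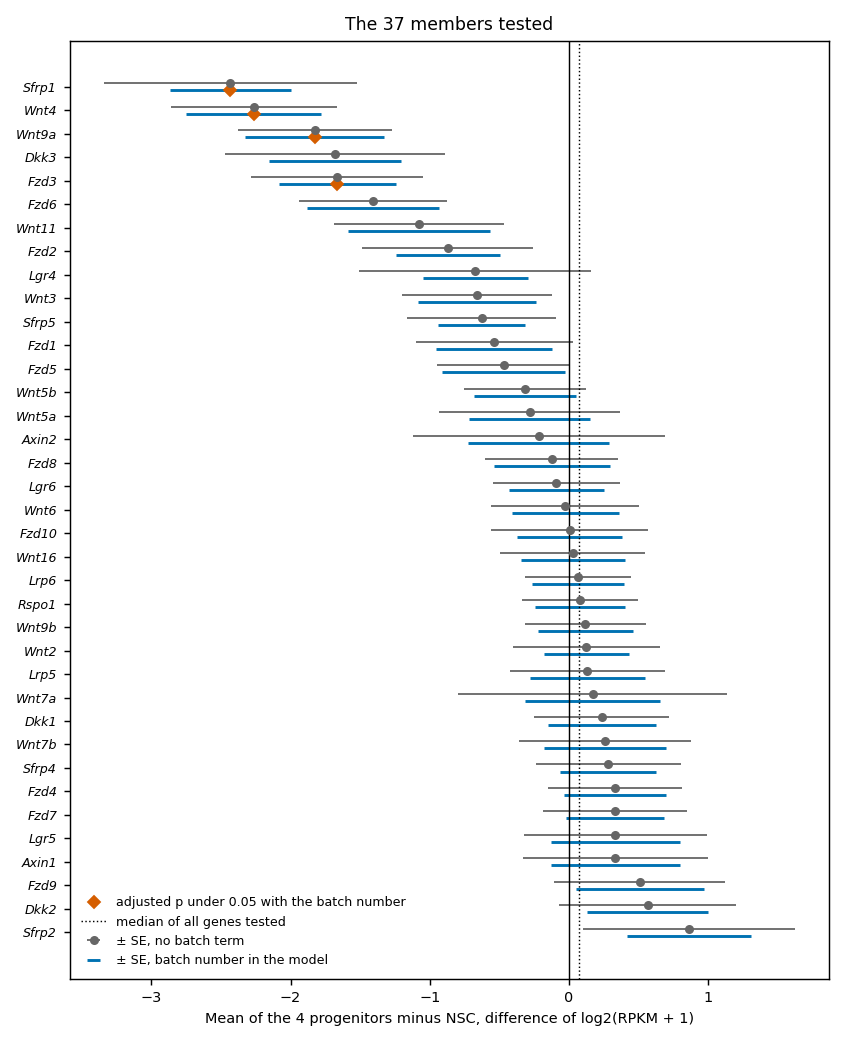
Difference of log2(RPKM + 1) between the mean of the 4 progenitors and NSC for the 37 genes tested, with bars of 1 SE without a batch term (grey) and with the batch number in the model (blue), and diamonds where the adjusted p was under 0.05 with the batch number. The dotted line is the median of all genes tested, at 0.07, and the genes run from Sfrp1 at -2.43 to Sfrp2 at 0.86.

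Cell type markers that moved with these differences are given as measured. Of the 12 ependymal markers, 9 were called lower in the mean of the progenitors without the block and 10 with it. Of the choroid plexus markers, 6 of 9 were tested and 2 were called lower without the block and 3 with it. Their sum was 10.2 to 214 RPKM in NSC and 0.17 to 113 RPKM in the progenitors, and Ttr, the most abundant transcript of choroid plexus, was at 0 to 2.84 RPKM in NSC and at 0 to 32.2 RPKM in the progenitors. Endothelial markers summed to 14.8 to 290 RPKM in NSC and to 5.39 to 130 RPKM in the progenitors. None of the 8 was called in the mean, while Cldn5 was called lower in GRP3 with the block. Of 12 markers of NSCs and radial glia, Hopx was called lower in the mean without the block, and Sox9, Thbs4, Gja1 and Hopx with it. Their sum was 290 to 6128 RPKM in NSC and 162 to 15037 RPKM in the progenitors. In the other direction, with the block, 5 of 8 pericyte and 3 of 8 microglia markers were called higher in GRP2/MP3 than in NSC. Of 8 markers of oligodendrocyte precursors, 6 were called higher in GRP3 and likewise in PFMP. Among these 6 is Pdgfra, which encodes the CD140a of the sort, so its call follows from the gates. Without the block none of these was called. The part of these cells in the levels of Sfrp1, Wnt4, Wnt9a, Fzd3, Fzd6 and Dkk3 was not tested.

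Wnt4 and Wnt9a are the ligands that passed with the block, and RefSeq's promoter table (GRCm38.p6), which matched 30 of the 48 genes, holds both. Below are the bases before the first annotated exon within the window of each, on the plus strand and 5′ to 3′, at chr4:137277385-137277488 and chr11:59306680-59306927, shown because both genes were called lower in the mean of the progenitors, with each CG dinucleotide in capitals.
Wnt4: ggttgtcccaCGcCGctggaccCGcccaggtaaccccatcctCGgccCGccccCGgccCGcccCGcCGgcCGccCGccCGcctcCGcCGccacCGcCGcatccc
Wnt9a: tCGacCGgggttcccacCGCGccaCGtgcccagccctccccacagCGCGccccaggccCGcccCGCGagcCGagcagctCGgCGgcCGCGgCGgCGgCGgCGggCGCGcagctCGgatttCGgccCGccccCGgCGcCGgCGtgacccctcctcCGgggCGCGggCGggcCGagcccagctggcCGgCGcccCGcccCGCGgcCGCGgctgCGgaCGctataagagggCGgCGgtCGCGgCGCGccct
In the 250 bases before the RefSeq start the Wnt4 promoter held 44 CG dinucleotides and that of Wnt9a 48, against a median of 6 over all 32851 promoters of the table and 22 over the 33 promoters of these genes. GC made up 85.2% and 84.4% of those bases, against medians of 52.4% and 68%. Of the 250 bases at Wnt4, only the 104 printed, with 16 CG dinucleotides, lie before the first annotated exon. The TCF/LEF motif ATCAAAG, searched on both strands of the 300 bases that run to 50 bases past the start, occurred in 3.73% of all promoters and in 2 of the 33, at Wnt5b and Wnt11. The RFX half-site GTTGCC, of the factors that act at ciliary genes, occurred in 12.5% of all promoters and in 1 of the 33, at Lgr6. Neither was found in these windows of Wnt4 or Wnt9a.

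The other families showed levels without a call against NSC. Axin1, the scaffold of the destruction complex, was at 30.6, 9.72, 7.84 and 1.70 RPKM in NSC 1 to 4 and at 14.4, 9.13, 7.98 and 7.63 RPKM in BNAP/GRP1. It was at 6.30, 33.4, 7.42 and 7.39 RPKM in GRP2/MP3, at 29.3, 34.3, 6.5 and 2.39 RPKM in GRP3 and at 41.7, 15.2, 6.27 and 4.82 RPKM in PFMP. All 5 populations overlapped. Axin2, which is itself a target of beta-catenin, ranged from 1.07 to 29.5 RPKM in NSC and from 0 to 29.9 RPKM in the progenitors.

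Lrp6, the main co-receptor, was the most even of these genes. Its values were 6.11, 2.99, 5.85 and 3.32 RPKM in NSC 1 to 4, 3.88, 2.33, 5.70 and 7.13 RPKM in BNAP/GRP1 and 4.76, 5.88, 6.05 and 2.47 RPKM in GRP2/MP3. GRP3 held 4.72, 5.68, 4.83 and 5.92 RPKM and PFMP 5.43, 3.73, 5.99 and 2.52 RPKM. The population means lay between 4.42 ± 1.59 and 5.29 ± 0.60 RPKM (SD, n = 4), so neighbours in their order did not differ beyond their spread.

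Lgr4, a receptor for R-spondins, was highest in batch 4. It was at 3.03, 2.76, 0.73 and 58.7 RPKM in NSC 1 to 4 and at 2.05, 4.86, 0.34 and 10.49 RPKM in BNAP/GRP1. GRP2/MP3 held 2.30, 2.69, 0.55 and 15.3 RPKM, GRP3 2.33, 2.22, 0.62 and 20.5 RPKM, and PFMP 2.97, 1.05, 0.44 and 8.22 RPKM. The batch 4 library was the highest in every population. Rspo1, the only R-spondin tested, was at 0.25, 0.63, 0 and 1.11 RPKM in NSC 1 to 4 and at 0.69, 1.37, 0 and 7.88 RPKM in BNAP/GRP1. It stayed between 0 and 1.14 RPKM in the 12 libraries of GRP2/MP3 (0.64, 0.48, 0.35 and 0.64), GRP3 (0.22, 0, 0 and 1.14) and PFMP (0.20, 0, 0 and 0.36), so only BNAP/GRP1 2 and BNAP/GRP1 4 exceeded these.

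The remaining Frizzleds lay mostly under 10 RPKM. Fzd4, known from retinal and brain vessels, was above the NSC library of its batch in 15 of 16 progenitor libraries, but at 0.0438 to 1.57 RPKM outside BNAP/GRP1 4 and with no call. Fzd2 was below it in 15 of 16, Fzd5 in 14, and Sfrp5, Wnt3, Wnt5b and Wnt11 in 14, 13, 13 and 13, again with no call without the block or with it. Among the other families Lgr4 was below it in 15 of 16 and Lgr6 in 13, without a call, and Wnt2b, which was not tested, in 14. Lists of this kind follow from 4 NSC libraries that each serve 4 comparisons, so these counts are not independent. The share of all genes tested with such counts was not taken. The counts here and those given above for single genes can therefore not be read as particular to these genes.

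The progenitors were then compared with each other by their gates. None of the 37 genes passed for CD140a+ (GRP3, PFMP) against CD140a- (BNAP/GRP1, GRP2/MP3), for LeX+ (BNAP/GRP1, PFMP) against LeX- (GRP2/MP3, GRP3), or for the interaction, without the block or with it (limma). Of all genes tested 0% passed in each without the block, and 1.44%, 0% and 0% with it. At an unadjusted p under 0.05, 2 of the 37 were lower in CD140a+ cells without the block, and 3 lower and 1 higher with it, where 4.41% and 12.2% of all genes tested reached it, so these shares were near the background. For LeX the number at that p was 0 in either fit, against 0.297% of all genes without and 1.08% with the block. For the interaction it was 0 without the block and 1 with it, against 0.775% and 5.01% of all genes.

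Wnt7a, a ligand known for its role in brain vessels and in oligodendrocyte precursors, had the highest mean of the Wnt genes in each of the 4 progenitors, while Wnt4 had it in NSC and Wnt2 led in each batch 3 library. Wnt7a was at 12.5, 8.39, 0 and 9.08 RPKM in NSC 1 to 4, at 7.14, 7.56, 0.31 and 22.9 RPKM in BNAP/GRP1 and at 0.78, 6.32, 0.07 and 3.71 RPKM in GRP2/MP3. The CD140a+ populations held 30.3, 27.2, 0.18 and 12.1 RPKM in GRP3 and 16.9, 50.6, 0.05 and 8.10 RPKM in PFMP. In batches 1 and 2 the 4 CD140a+ libraries all lay above the 4 CD140a- ones, in batch 4 they overlapped, and in batch 3 all 5 populations were at 0.31 RPKM or less. The difference between CD140a+ and CD140a- was 1.21 ± 0.86 (SE) in log2(RPKM + 1), and 2.63, 2.27, -0.09 and 0.04 in batches 1 to 4, with an adjusted p of 0.895 without and 0.205 with the block. Without batch 3, whose CD140a+ libraries held little Pdgfra, it was 1.65, with an adjusted p of 0.166 without and 0.126 with the block (limma).

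Dkk2 and Fzd7, named because they were the 2 genes at an unadjusted p under 0.05, were lower in the mean of the CD140a+ populations in all 4 batches without passing the adjusted threshold. In batch 3 Dkk2 was at 0.25 RPKM or less in every progenitor, and the CD140a+ libraries of that batch held little Pdgfra. Dkk2, a Dickkopf that binds Lrp6, was at 7.26, 1.23, 0.06 and 10.2 RPKM in BNAP/GRP1 1 to 4 and 7.74, 7.84, 0.25 and 3.44 RPKM in GRP2/MP3, against 0.27, 0.33, 0 and 1.61 RPKM in GRP3 and 2.44, 0.03, 0.05 and 3.15 RPKM in PFMP. Its difference was -1.30 ± 0.57 (SE, adjusted p = 0.895 without and 0.107 with the block, limma), and -1.68 without batch 3 (adjusted p = 0.184 and 0.0967). Fzd7, a receptor found on many stem cells, was at 4.45, 2.55, 6.39 and 7.24 RPKM in BNAP/GRP1 and 1.79, 3.37, 6.86 and 1.67 RPKM in GRP2/MP3, against 0.67, 0.83, 5.52 and 2.08 RPKM in GRP3 and 0.46, 0.63, 5.02 and 0.20 RPKM in PFMP. Its difference was -1.02 ± 0.46 (SE, adjusted p = 0.895 without and 0.125 with the block, limma), and -1.27 without batch 3 (adjusted p = 0.181 and 0.149).

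**Figure D4:**
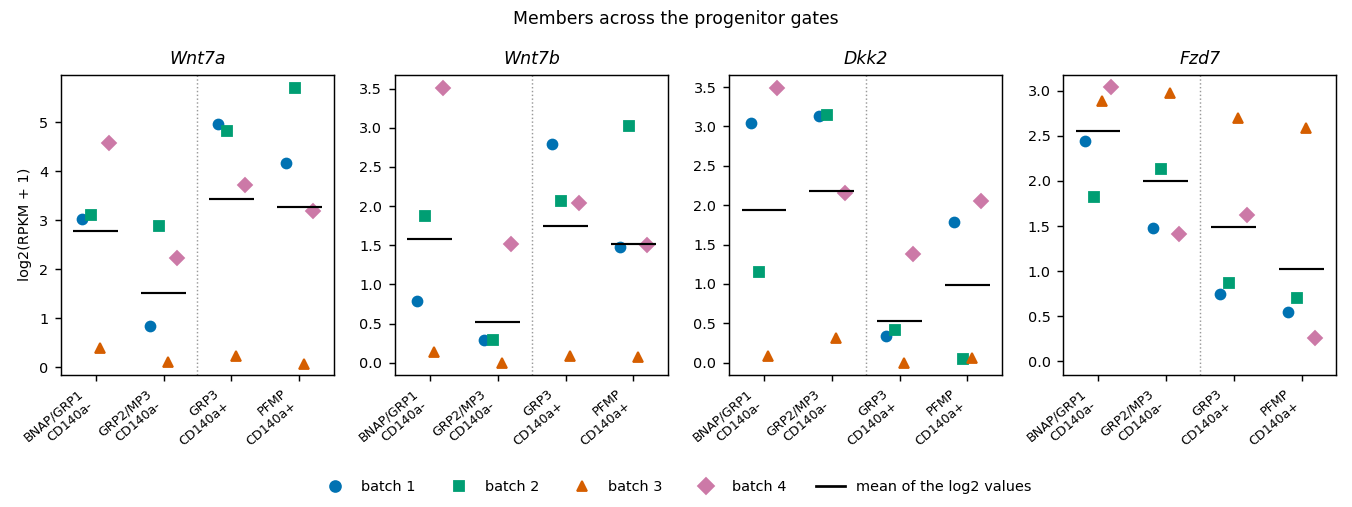
log2(RPKM + 1) of Wnt7a, Wnt7b, Dkk2 and Fzd7 in the 4 libraries of each progenitor population, CD140a- to the left and CD140a+ to the right of the dotted line, with the symbol and colour giving the batch and a line at the mean of the log2 values. Wnt7a reaches 50.6 RPKM in PFMP 2 and lies near 0 in every library of batch 3, while Fzd7 is highest in batch 3 in GRP2/MP3, GRP3 and PFMP.

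Other cell types moved with the CD140a gate. Microglia markers summed to 101 to 3377 RPKM in BNAP/GRP1 and 264 to 3165 RPKM in GRP2/MP3, against 17.8 to 268 RPKM in GRP3 and 13.6 to 257 RPKM in PFMP, and 7 of the 8 were called lower in CD140a+ cells with the block. The sum of the pericyte markers did not follow the gate. It was 123.8 to 515 RPKM in GRP2/MP3 1 to 3 and 7345 RPKM in GRP2/MP3 4. In BNAP/GRP1 it was 9.35 to 201 RPKM, overlapping with 98.4 to 131 RPKM in GRP3 and 30.8 to 157 RPKM in PFMP. Cspg4, which encodes NG2 and is also among the markers of oligodendrocyte precursors, made up most of it in some CD140a+ libraries. It was at 93.2, 80.9 and 146 RPKM in GRP3 1, GRP3 2 and PFMP 2. Anpep made up nearly all of the sum in batch 3, at 115 to 130 RPKM against at most 0.19 RPKM in batches 1 and 2. In those libraries the sum does not give a level of pericytes. Of the 8 markers, 2 were called lower in CD140a+ cells with the block. Markers of oligodendrocyte precursors summed to medians of 1913 RPKM in GRP3 and 1361 RPKM in PFMP, against 60.2 RPKM in BNAP/GRP1 and 47.3 RPKM in GRP2/MP3, and 5 of 8 were called higher with the block. Pdgfra, which encodes the CD140a of the gate, is in this sum and among the 5, so its call follows from the sort. The part of these cell types in the values of Wnt7a, Dkk2 and Fzd7 was not tested.

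Batch 3 lay apart from batches 1 and 2 for some of these genes, as it did for many of all genes tested. Its 5 libraries, NSC included, were compared with the 10 of batches 1 and 2. Wnt2, Fzd1, Fzd7 and Lrp5 were higher in all 5 than in any of the 10. That is 4 of 37, near the 10.5% of all genes tested that lay so. Axin2, Lgr4, Lgr5, Sfrp2, Wnt5a, Wnt7a and Wnt7b were lower in all 5 than in any of the 10, which is 7 of 37, where 11% of all genes did. These genes were named after their values were seen. Wnt2, a ligand known from lung development, was at 1.97 to 2.78 RPKM in batch 3 and at 0 to 0.12 RPKM in batches 1 and 2. Fzd1 was at 3.97 to 5.45 RPKM against 0.22 to 3.51 RPKM, Fzd7 at 5.02 to 6.86 RPKM against 0.46 to 4.45 RPKM, and Lrp5 at 1.47 to 2.08 RPKM against 0.26 to 1.03 RPKM.

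In the other direction, Axin2 was at 0 to 1.07 RPKM in batch 3 against 5.45 to 29.9 RPKM in batches 1 and 2, and Wnt7a at 0 to 0.31 RPKM against 0.78 to 50.6 RPKM. Sfrp2, a secreted Wnt modulator, was at 0 to 0.57 RPKM against 1.18 to 13.7 RPKM, and Wnt5a, a ligand of the polarity branch, at 0 to 0.71 RPKM against 1.36 to 6.0 RPKM. Lung epithelium markers, as given above, and alveolar macrophage markers, at 1253 to 1452 RPKM in batch 3 against at most 69.2 RPKM in batches 1 and 2, moved with batch 3, and markers of NSCs and radial glia summed to 162 to 290 RPKM there against 365 RPKM or more in batches 1 and 2. Their part in the levels of Wnt2 and the others was not tested.

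**Figure D5:**
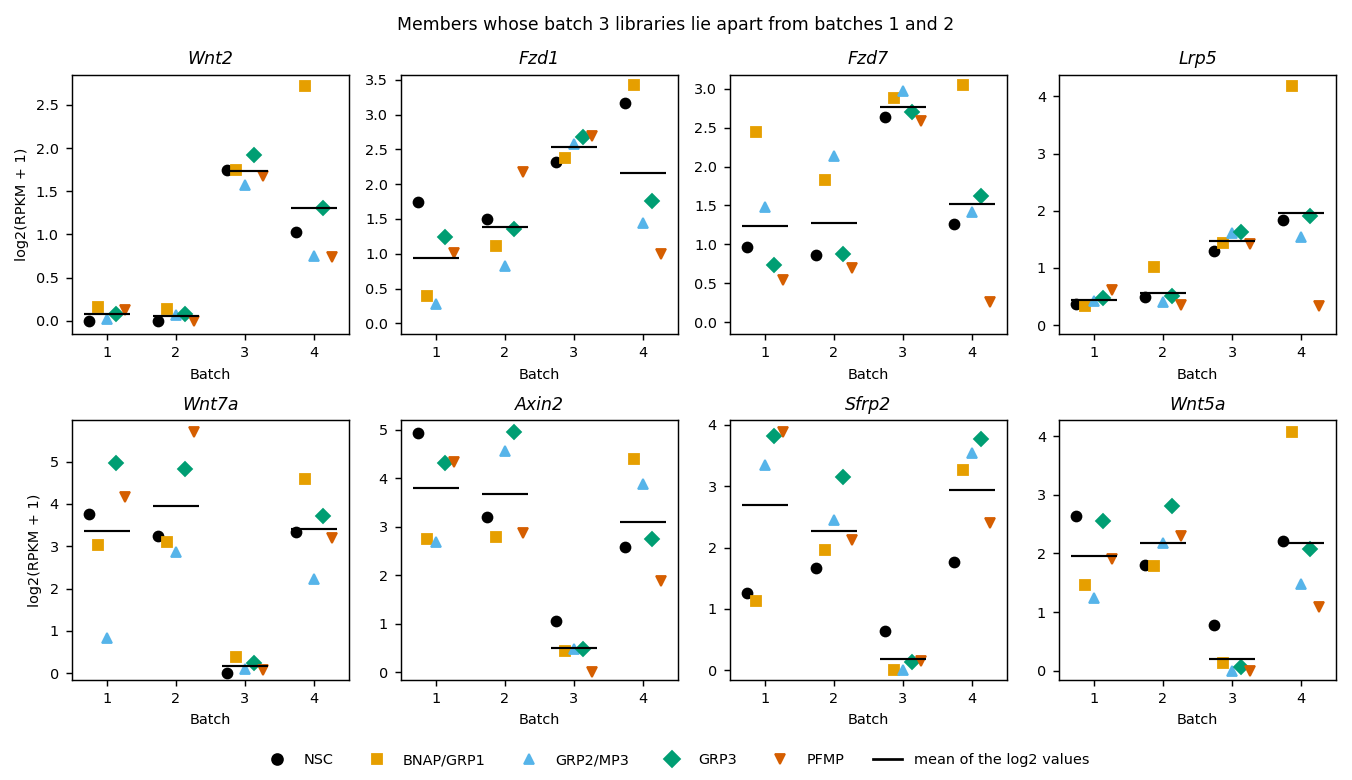
log2(RPKM + 1) of 8 genes by batch, with the symbol and colour giving the population and a line at the mean of the 5 log2 values. The upper row (Wnt2, Fzd1, Fzd7, Lrp5) lies higher in batch 3 than in batches 1 and 2 and the lower row (Wnt7a, Axin2, Sfrp2, Wnt5a) lower, in all 5 populations. Batch 4 holds Wnt7a, Axin2, Sfrp2 and Wnt5a above every batch 3 library and spreads from 0.20 to 7.24 RPKM for Fzd7.

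The rest of the pathway was read from 5 lists. Of 17 genes of Wnt secretion and extracellular control, 14 were tested, and only Sostdc1, a secreted antagonist, fell, with the block, in GRP2/MP3 and in the mean of the progenitors. Of 30 genes of intracellular transduction 29 were tested, and only Cby1, a beta-catenin antagonist that also sits at the base of cilia, fell, in all 4 progenitors and the mean with the block. Of 14 planar cell polarity genes, all tested, only Wdpcp, a polarity effector needed for cilia, fell, with the block, in GRP2/MP3, GRP3, PFMP and the mean. Of the 3 tested co-receptors of 4 and the 14 tested targets of beta-catenin of 15, none was called in any comparison with NSC in either fit. With the block 2.09%, 3.08%, 2.6% and 2.79% of all genes passed in the 4 progenitors and 4.36% in the mean. A single call among 14 or 29 genes is near these shares. The median log2 difference in the mean of the progenitors was 0.15, 0.19, -0.62, -0.17 and 0.03 in these 5 lists in the order above, beside 0.07 over all genes tested. None of the lists had a call between the CD140a gates.

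Cby1 was at 152, 455, 30.7 and 110 RPKM in NSC 1 to 4 and at 2.05 to 62.4 RPKM in the 16 progenitor libraries. Only GRP2/MP3 4 and PFMP 4, at 37.4 and 62.4 RPKM, were above the lowest NSC library. The difference of Cby1 in the mean of the progenitors was -3.59 ± 0.70 (SE, adjusted p = 0.00441, limma), and it also fell in BNAP/GRP1 and GRP2/MP3 without the block (adjusted p = 0.0481 and 0.0295). Wdpcp was at 9.82, 28.7, 7.49 and 22.8 RPKM in NSC and at 0.44 to 17.4 RPKM in the progenitors, the highest being BNAP/GRP1 4, with a difference of -2.21 ± 0.61 (SE, adjusted p = 0.069 without and 0.00245 with the block, limma). Sostdc1 was at 32.6, 20.4, 1.202 and 2.10 RPKM in NSC and at 0 to 6.74 RPKM in the progenitors, overlapping with NSC, with a difference of -2.002 ± 0.69 (SE, adjusted p = 0.247 without and 0.0472 with the block, limma).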

How the data were processed

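RNA of the 20 sorted populations was amplified from polyA and sequenced for 75 cycles. According to the study's methods and the submitters' processing notes, the authors checked reads with FastQC 0.11.9, trimmed them with cutadapt 3.4, aligned them to GRCm38 with STAR 2.6.1, quantified them with Salmon 1.9.0 and normalised counts with DESeq2 1.26.0. The authors deposited RPKM values per gene and library, which were used here as log2(RPKM + 1) with no further scaling. The read total and gene lengths behind the RPKM are not given in the sources used here, and scaling to length and library size makes a value depend on what else a library holds. The table has 26 further columns without values.

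Groups came from the sample labels. Genes that reached 1 RPKM in 4 or more libraries were tested (27614 of 45705), in R 4.3.3 with limma 3.58.1 (1 mean per population, no batch term, since the study's methods name none, trended prior, two-sided moderated test, Benjamini-Hochberg over all genes tested, threshold 0.05). The alternative fit held the batch number as a replicate block. The labels give the batch. Deviations from the population means correlated within batches 1 to 4 with medians of 0.337, 0.262, 0.769 and 0.581 (lowest pair 0.0341), against -0.254 for pairs from different batches. Genes named with full values are those called in any comparison without or with the block, the member of each family with the highest mean, and, among the other pathway genes, those called, while Fzd6, Dkk2, Fzd7 and the genes of batch 3 were named after their values were seen. Members and lists were chosen with earlier results of these data known. The fit was also run on simulated normal values with known shifts, which does not test the calls made in these libraries. Promoters came from RefSeq (GRCm38.p6) and positions from GENCODE vM21. Figures used Python 3.11.15 with matplotlib 3.10.9. Protein sequences were not used here.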

Additional observations from a re-analysis of the deposited data

Results flagged for a closer look

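The libraries of each population were screened for 1 value far from the other 3, over the 10 named genes and 5 populations by Dixon's 95% criterion on the gap relative to the range. Of the 50 groups, 9 had such a library. The criterion would flag about 2.5 of 50 independent groups of normal values. RPKM was screened here without logs and the groups share batches, so no excess over chance can be read from the 9. In 7 of the 9 the library was of batch 4, and in 3 it was BNAP/GRP1 4, at 9.14 RPKM for Wnt4, 7.08 RPKM for Fzd3 and 9.02 RPKM for Wnt9a. Sfrp1 in GRP2/MP3 4 was at 26.1 RPKM. Lgr4 stood apart at 58.7 RPKM in NSC 4, 15.3 RPKM in GRP2/MP3 4 and 20.5 RPKM in GRP3 4. The other 2 were of batch 2, Wnt4 at 4.26 RPKM in PFMP 2 and Axin1 at 33.4 RPKM in GRP2/MP3 2. No named gene was higher than NSC in all 4 batches of one progenitor and lower in all 4 of another.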

How the results depend on the processing

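The 33 log2 differences of 9 genes (Sfrp1, Wnt4, Fzd3, Wnt9a, Dkk3 and Fzd6 against NSC, and Dkk2, Fzd7 and Wnt7a between the CD140a gates) kept their direction under every alternative that held the gene and the comparison. Since no gene passed without the block, each alternative could only add calls, and all added were lower than in NSC. The counts of genes lower in BNAP/GRP1, GRP2/MP3, GRP3 and PFMP than in NSC and different in the mean of the progenitors went from 0 each to 1, 3, 1, 1 and 4 with the replicate block. Quantile normalization gave 1 in BNAP/GRP1, 1 in GRP2/MP3 and 2 in the mean (1.7%, 1.67% and 2.88% of all genes), median-of-ratios scaling 2 in the mean (2.44% of all), and a prior without a trend 1 in the mean (2.01%). Leaving out batch 3 gave 1 in GRP2/MP3 and 1 in the mean (1.81% and 2.55% of all), and leaving out batch 4 gave 1 in the mean (2.9%). Leaving out single libraries gave 0 to 2 in BNAP/GRP1, 0 to 1 in GRP2/MP3, 0 to 1 in PFMP and 0 to 2 in the mean. BNAP/GRP1 4 (2, 1, 1 and 2 calls in these 4), NSC 3 (0, 1, 1 and 2) and PFMP 2 (1 in the mean) were the libraries whose omission added calls, all of Wnt4 or Wnt9a, where 1.58% to 3.22% of all genes were called.

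Chosen after seeing the data were 3 omissions together with the block. Without BNAP/GRP1 4 the counts were 3, 4, 2, 5 and 7, without batch 3 they were 2 in GRP2/MP3 and 2 in the mean (Sfrp1 and Wnt4; 2.7% and 3.53% of all genes), and without batch 4 they were 2 in BNAP/GRP1, 3 in GRP2/MP3, 1 in PFMP and 4 in the mean (2.46%, 2.98%, 2.19% and 4.58% of all). The cause of these shifts was not tested. Counts of higher genes, and those for CD140a, LeX and their interaction, stayed at 0 in every setting. The block changed no other call of these genes. Every count stayed at 0 with a stricter filter (a mean of 5 RPKM, which leaves out more of these genes), without a filter, with a pseudocount of 0.1, and in fits of NSC and 1 progenitor alone, which were made only for the 4 single progenitors. The stricter filter left out Wnt4, Fzd3 and Wnt9a, so of the genes called with the block only Sfrp1 could be called under it. Quantile normalization moved the median of all genes in BNAP/GRP1 against NSC from 0.38 to 0.03 and that of the 37 genes from 0.15 to -0.22. With read totals unknown, levels under about 1 RPKM cannot be set against counting error.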
